A study of Bos taurus with 8 samples.

Results

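The BCL2 family death and survival genes examined here are 10 genes, namely the effectors BAX, BAK1 and BOK, the BH3-only genes BAD, BID and BCL2L11, and the survival genes BCL2, BCL2L1, MCL1 and BCL2A1. They were taken from the annotated array table by gene symbol, and each symbol stood on exactly 1 of the 26773 transcript clusters, that is, the probes of a gene summarized to a single value. Mural granulosa cells, the cell layer lining the follicle, were scraped from the wall of large dominant follicles of 8 lactating German Holstein cows. The heat stress (HS) group of 4 cows was kept in a climate chamber at 28°C, 52% relative humidity and a temperature humidity index of 76, and the pair-fed (PF) group of 4 cows at 15°C, 64% and an index of 60 with feed restricted to the intake measured under heat, for 96 h in both groups. All 8 cows received 500 µg prostaglandin F2α 72 h before slaughter to induce luteolysis and, 49 h after that, 100 µg of a GnRH analog to induce an LH surge, so that PF cows differed from an untreated cow in feed and hormones as well. RNA of each cow was hybridized to 1 array, and values are log2 signals after the robust multichip average (RMA).

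Proteins of the BCL2 family decide whether the outer membrane of the mitochondrion is opened, the step that releases cytochrome c and sets off the caspases. BAX and BAK1 form the pores, BH3-only proteins carry death signals to them or block the guardians, and BCL2, BCL-XL (the product of BCL2L1), MCL1 and the BCL2A1 protein hold the effectors in check. In the ovary the family is known for its part in follicular atresia, the loss of granulosa cells by apoptosis. Much of its control acts on the proteins, by cleavage, phosphorylation or degradation, which transcript signals do not show.

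PF replicate 3 stood apart from the other samples in its marker signals. The mean signal of 9 genes that the LH surge induces was 5.80 on this array, against 8.06 to 8.36 on the HS arrays and 8.19 to 9.07 on the other PF arrays, and PTGS2, the prostaglandin synthase that marks the response, was at 3.46. This array was the lowest for 6 of these 9 genes, but not for ADAMTS1 (8.84), RUNX1 (7.48) or HAS2 (3.90). Its mean over 10 myeloid markers was 8.02, above the 5.60 to 6.63 of the HS arrays and the 5.71 to 6.85 of the other PF arrays. Granulosa markers other than CYP19A1 gave signals above 5 on all arrays. CYP19A1 had 5.63, 6.57, 5.20 and 10.65 in HS and 4.42, 4.52, 6.92 and 4.57 in PF (replicates 1 to 4). The mean over 10 granulosa markers was 8.81 to 9.67 in HS and 8.14 to 8.65 in PF, without overlap (8 of 10 higher in HS). No single granulosa marker was free of overlap. PF replicate 3 was the lowest array for 5 of them, such as HSD3B1 (7.36), but exceeded the other PF arrays for others, such as INHBA (9.97). Theca markers gave signals too (8.21 to 8.97 in HS and 6.90 to 9.07 in PF), and endothelial markers ranged widely in both groups (5.30 to 8.33 in HS and 5.54 to 9.08 in PF). All 7 endothelial and all 8 fibroblast and smooth muscle markers had a lower mean in HS. Whether these marker differences reflect cell content, and what part cell content had in the signals of the BCL2 family, was not tested. The differences of the genes named below are therefore also given without PF replicate 3. The array medians lay between 5.27 and 5.44, and precision is limited by having 4 arrays per group.

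None of the 10 transcripts passed the study's thresholds or an adjusted p of 0.05 between HS and PF cows. The largest positive difference was that of BCL2, at 0.61 on the log2 scale or a fold of 1.52 for HS over PF, and the largest negative one that of BCL2A1 at -0.45. Of the 10 genes, 6 had a higher and 4 a lower mean in HS, with a median log2 difference of 0.15, and the median over all clusters was -0.02. The median size of the difference, whatever its sign, was 0.20 over the 10 genes and 0.14 over all clusters. With arrays weighted by their quality in limma, the median difference of the family was -0.04, BCL2 was at 0.26 and BCL2L1 at 0.19. The study's thresholds, which 0 of the 10 met, were a fold change above 1.5 with an unadjusted p under 0.05. With the p of limma 591 clusters (2.21%) met them, and with the methods' t-test, which is nearer to the study's own test, 355 did. None passed an adjusted p of 0.05 in limma (Benjamini-Hochberg over all clusters), where the share over the whole array was 0%, and the adjusted p of the members lay between 0.68 and 0.95. At an unadjusted p under 0.05 limma counted 2 of the 10, BCL2L1 and BCL2A1, against 7.2% of all clusters, and the methods' t-test counted none. No member had HS and PF arrays without overlap, while 4.64% of all clusters did. In bulk cells, fewer cells of a type and less RNA per cell cannot be told apart.

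**Figure D1:**
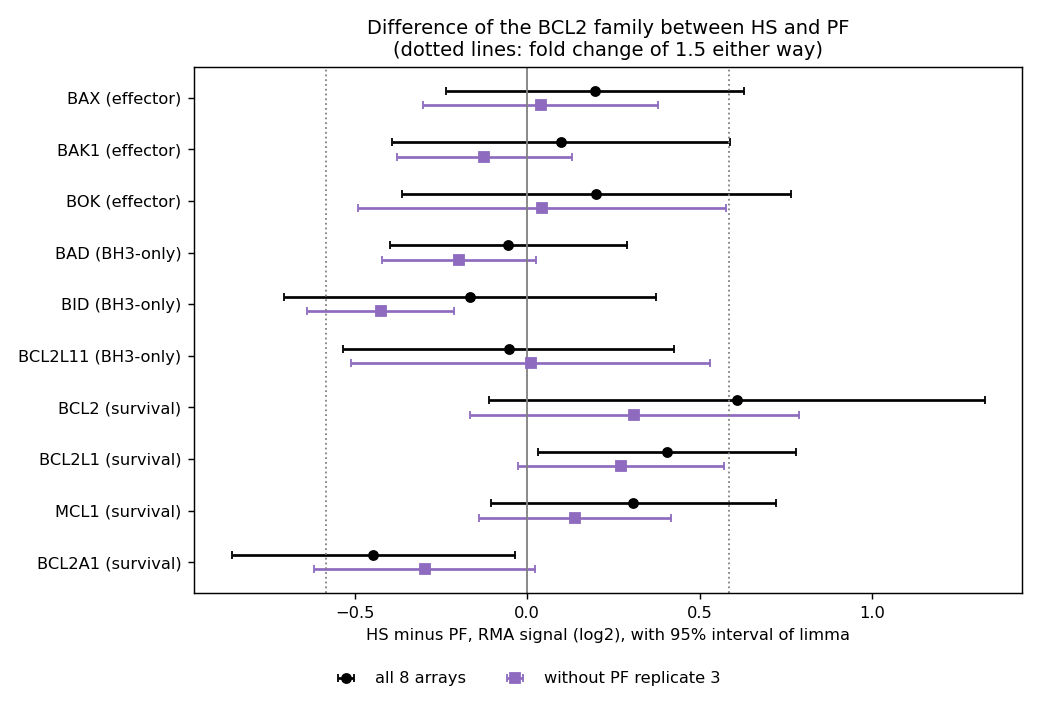
Difference between HS and PF for each of the 10 genes in log2 units (x axis), with the 95% interval of limma, on all 8 arrays (black circles) and without PF replicate 3 (violet squares). Zero lies outside the interval for BCL2L1 and BCL2A1 on all arrays and for BID alone without PF replicate 3, and the dotted lines mark a fold change of 1.5 in either direction.

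The width of these intervals shows how much the 8 cows can tell. For BAD and BCL2L11 the whole 95% interval lay within a fold change of 1.5 in either direction, as it did for 60.0% of all clusters. For the other 8 genes the interval reached past that size on 1 side only. It did so toward higher signals in HS for BAX, BAK1, BOK, BCL2, BCL2L1 and MCL1, and toward lower ones for BID and BCL2A1. In that direction these samples neither show nor exclude a difference of 1.5-fold, while in the opposite direction the 95% interval did not reach it.

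Among the effectors, BAX, whose product inserts into the mitochondrial membrane on activation, gave signals, in the order of replicates 1 to 4 as for all genes here, of 7.63, 7.43, 7.20 and 7.31 in HS cows and of 7.10, 7.46, 6.73 and 7.51 in PF cows (cluster 12749246). The HS signals lay within the range of the PF signals except for replicate 1, which was the highest of all 8. The log2 difference was 0.20 (95% interval -0.24 to 0.63), and 0.04 without PF replicate 3. BAK1, which encodes the second pore former and resides on the mitochondrion, had 6.92, 6.70, 6.75 and 7.02 in HS and 6.90, 7.05, 6.08 and 6.97 in PF (cluster 12805572). Only PF replicate 3 fell clearly below the rest. The log2 difference of BAK1 was 0.10 (95% interval -0.39 to 0.59) on all arrays and -0.12 without that sample. BOK, a BAX-like gene first described in the ovary of the rat, had 6.42, 6.77, 6.34 and 5.92 in HS and 6.05, 6.73, 5.69 and 6.18 in PF (cluster 12836524). It varied most among the HS cows of the 10 genes (SD 0.35), and both groups covered nearly the same range, with a log2 difference of 0.20 (95% interval -0.36 to 0.77) that was 0.04 without PF replicate 3.

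**Figure D2:**
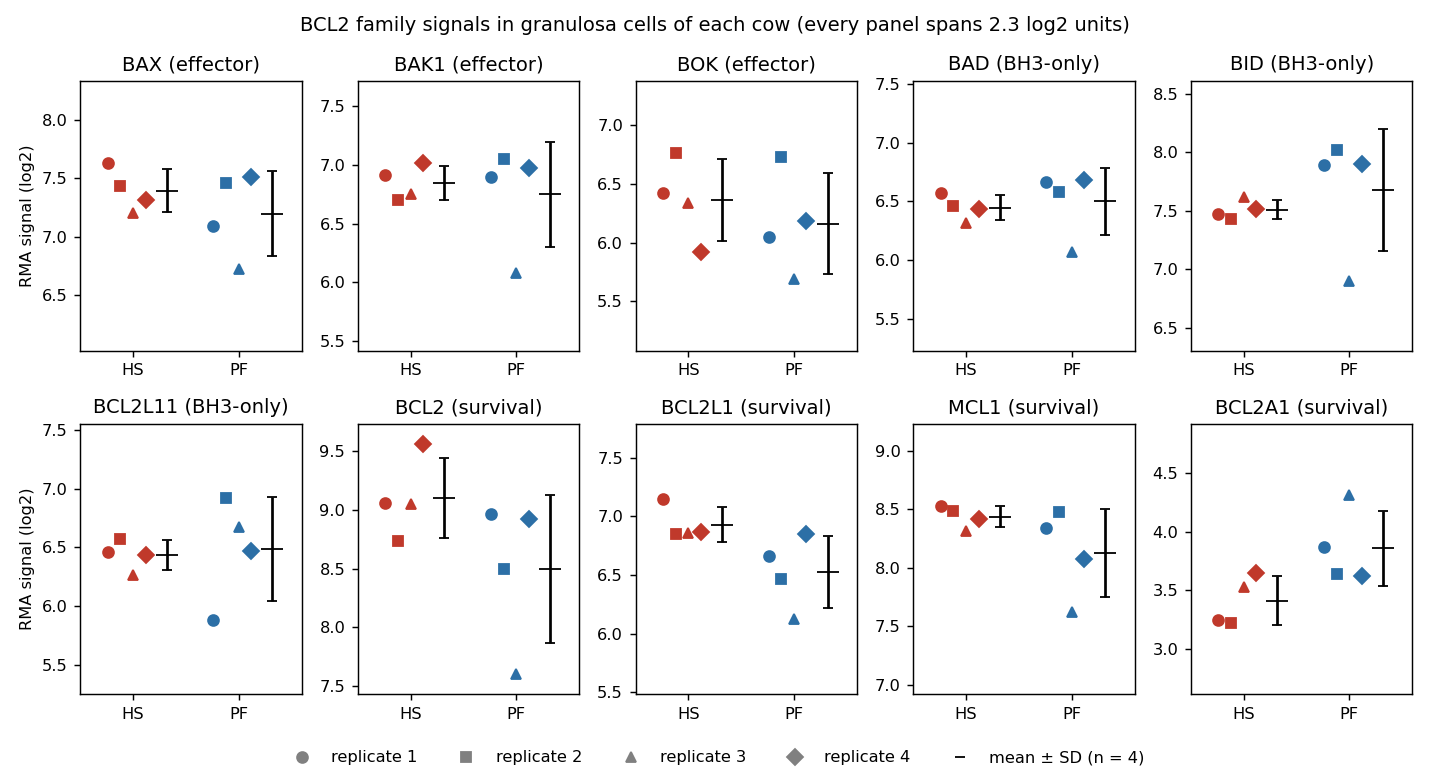
RMA signals (log2, y axis) of the 10 genes in the 4 HS and 4 PF cows, 1 symbol shape per replicate number, with mean ± SD (n = 4) beside each group. The HS and PF points overlap in every panel, and the triangle of PF replicate 3 is the lowest point of 8 panels and the highest of the BCL2A1 panel.

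On all 8 arrays the BH3-only genes gave the lowest differences apart from BCL2A1, while without PF replicate 3 BAK1 was lower than BCL2L11. BID, whose product is cleaved by caspase 8 and so links death receptors to the mitochondrion, had 7.47, 7.43, 7.62 and 7.52 in HS and 7.89, 8.02, 6.90 and 7.90 in PF (cluster 12865302). The 4 HS cows were close together (SD 0.079), and all of them lay below PF replicates 1, 2 and 4 but above PF replicate 3. The log2 difference was -0.17 (standard error 0.24, adjusted p = 0.85 in limma) on all arrays. Without PF replicate 3 it was -0.42 (standard error 0.092), with an unadjusted p of 0.0018 and an adjusted p of 0.24 in limma, the smallest unadjusted p of any member in any repeat with 1 array left out. This repeat is 1 of 8 that each left out an array, and it was singled out after its values were seen. BAD, which binds BCL2 and BCL-XL unless it is phosphorylated, had 6.57, 6.46, 6.32 and 6.43 in HS and 6.67, 6.58, 6.07 and 6.68 in PF (cluster 12834894). It showed the same order as BID, with the HS cows between PF replicate 3 and the other PF cows, at a much smaller distance. The log2 difference of BAD was -0.05 on all arrays and -0.20 without PF replicate 3 (95% interval -0.42 to 0.03). Without that array, BAD and BID were the 2 of 10 members whose groups did not overlap, and 10.8% of all clusters did not overlap either.

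BCL2L11 encodes BIM, a potent activator of BAX and BAK1 that follows the loss of growth factors. Its signals were 6.46, 6.57, 6.26 and 6.44 in HS and 5.88, 6.92, 6.68 and 6.47 in PF (cluster 12704547). PF replicate 1 was the lowest and PF replicate 2 the highest of all samples, and the HS cows lay between them. The means were 6.43 ± 0.13 in HS and 6.49 ± 0.44 in PF (SD, n = 4), a log2 difference of -0.05 (95% interval -0.53 to 0.43) that was 0.0093 without PF replicate 3. In contrast to most of the family, BCL2L11 was not low in PF replicate 3. Positions on the bovine build UMD3.1 are given in the table for BAD and BCL2L11 alone, as chromosome 29, 43190201 to 43201983, and chromosome 11, 1156954 to 1199792, both on the reverse strand.

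The survival genes BCL2, BCL2L1 and MCL1 had the highest differences of the 10. BCL2, the founding member of the family, had 9.06, 8.74, 9.05 and 9.56 in HS and 8.96, 8.50, 7.60 and 8.92 in PF (cluster 12809133). All HS samples but replicate 2 were above every PF sample. The means were 9.10 ± 0.34 in HS and 8.49 ± 0.63 in PF (SD, n = 4), a log2 difference of 0.61 (95% interval -0.11 to 1.33, adjusted p = 0.68 in limma). Across the 70 ways of splitting the arrays 4 to 4, the exact permutation test (two-sided) gave p = 0.14, and the smallest p that this design allows is 0.029. The fold of 1.52 was past 1.5, but the unadjusted p was 0.087. Without PF replicate 3 the log2 difference was 0.31.

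BCL2L1 came nearest to a separation of the groups. Its signals were 7.15, 6.85, 6.86 and 6.87 in HS and 6.66, 6.47, 6.12 and 6.85 in PF (cluster 12718083). HS replicate 2 at 6.848 and PF replicate 4 at 6.850 were the only arrays out of order. The log2 difference was 0.41 (95% interval 0.03 to 0.78, adjusted p = 0.68 in limma), the unadjusted p was 0.037, and the exact permutation test gave p = 0.057. Without PF replicate 3 the log2 difference was 0.27 (unadjusted p = 0.069 in limma). A cluster covers the gene as a whole, so the long and short splice forms of BCL2L1, which act in opposite directions, are not separated.

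MCL1, whose short-lived product is needed for the survival of many cell types, had 8.53, 8.48, 8.32 and 8.42 in HS and 8.34, 8.48, 7.62 and 8.08 in PF (cluster 12841926). The HS signals lay close together (SD 0.091) at the top of the PF range. Its log2 difference of 0.31 (95% interval -0.11 to 0.72) was 0.14 without PF replicate 3.

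BCL2A1 was the only survival gene with a lower mean in HS. This target of NF-κB is mainly known from blood cells. It had 3.25, 3.22, 3.53 and 3.65 in HS and 3.87, 3.64, 4.31 and 3.62 in PF (cluster 12791724), the only member with a mean signal under 5, where signals are weak. HS replicates 1, 2 and 3 were below every PF sample, and HS replicate 4 lay among them. The log2 difference was -0.45 (95% interval -0.86 to -0.04, adjusted p = 0.68 in limma), with an unadjusted p of 0.036 and p = 0.086 in the exact permutation test. PF replicate 3 had the highest BCL2A1 signal and also the highest myeloid and lymphocyte means. All 10 markers of myeloid cells and all 10 of lymphocytes and leukocytes at large had a lower mean in HS, and the list means were 5.91 ± 0.48 for the myeloid and 4.90 ± 0.29 for the other list in HS and 6.68 ± 1.01 and 5.53 ± 0.48 in PF (SD, n = 4). The study's thresholds were passed in limma by 1 myeloid marker and 4 of the other list, against 2.21% of all clusters. Without PF replicate 3 these counts were 0 and 3. Leaving out PF replicate 3 gave a difference of -0.32 for the myeloid mean and of -0.41 for the mean of the other list. The difference of BCL2A1 was then -0.30 (unadjusted p = 0.065 in limma). The part of these cells in the BCL2A1 signal was not tested.

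Most of the spread within the family came from a single cow. PF replicate 3 gave the lowest of the 8 signals for 8 of the 10 genes, all but BCL2L11 and BCL2A1, whereas it was the lowest array for 22.8% of all clusters and for 31.9% of those with a mean log2 of at least 5. The distance was widest for BCL2, at 7.60 in PF replicate 3 and 8.50 to 8.96 in the other PF cows. Signals of this array lay below the mean of the other PF cows by 1.04 for BID, 0.89 for BAK1, 0.67 for MCL1, 0.63 for both BAX and BOK, 0.57 for BAD and 0.54 for BCL2L1 on the log2 scale. The median of this deviation was -0.63 over the 10 genes and 0.00 over all clusters. The SD was larger in PF than in HS for 10 of the 10 genes (75.5% of all clusters), with a median of 0.14 in HS and 0.40 in PF. Without PF replicate 3 it was larger in PF for 5 of the 10 (62.7% of all clusters), and the median SD in PF was 0.20. The median log2 difference of the family was then 0.02, and -0.01 over all clusters.

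**Figure D3:**
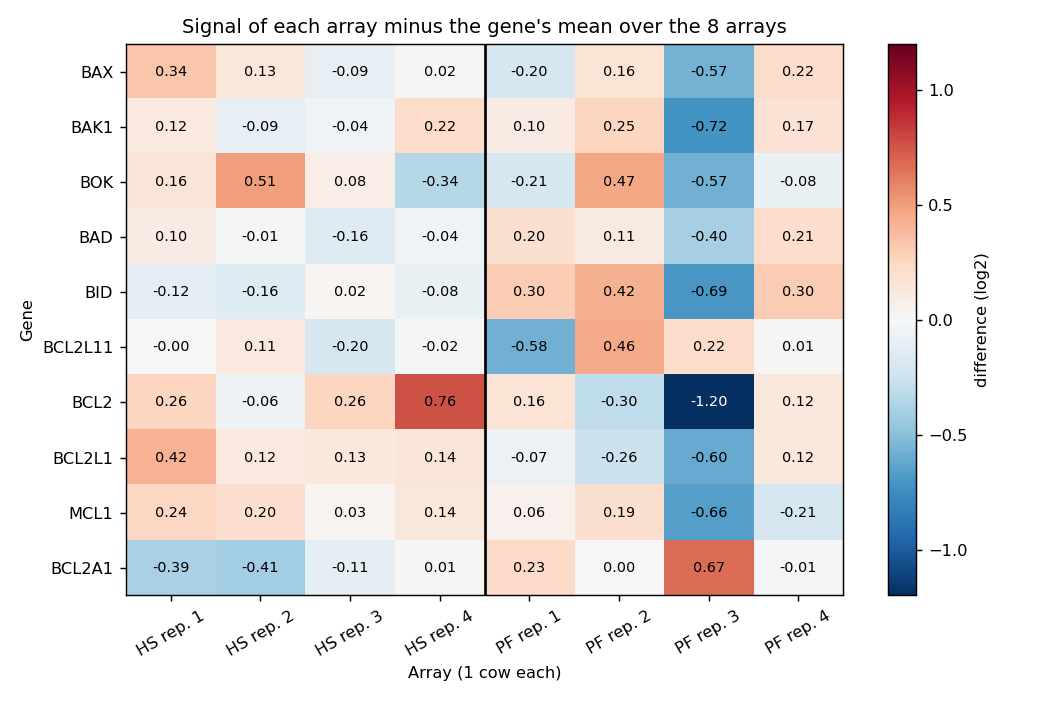
Signal of each array minus the mean of the 8 arrays for each gene (colour and printed value, log2). The column of PF replicate 3 is negative for 8 genes, down to -1.20 for BCL2, and positive for BCL2L11 and BCL2A1.

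The balance between death and survival transcripts was compared within each array, since a ratio on the same array does not depend on its overall brightness. Signals of different clusters come from different probes, so the level of a pair does not measure the ratio of transcripts. Only its difference between arrays can be read. BAX minus BCL2 was -1.43, -1.31, -1.85 and -2.25 in the HS cows, against -1.87, -1.04, -0.87 and -1.41 in the PF cows (replicates 1 to 4 of each). The groups overlapped, and PF replicate 1 was lower than 3 of the 4 HS cows. The mean was -1.71 ± 0.43 in HS and -1.30 ± 0.44 in PF (SD, n = 4), a difference of -0.41 on all arrays and of -0.23 without HS replicate 4. BAX minus BCL2L1 averaged 0.46 ± 0.10 in HS and 0.67 ± 0.23 in PF (SD, n = 4), BAX minus MCL1 -1.04 ± 0.10 in HS and -0.93 ± 0.28 in PF, and BAK1 minus MCL1 -1.59 ± 0.16 in HS and -1.38 ± 0.19 in PF. On all arrays the mean of all 4 pairs was lower in HS, and for none of them were the groups free of overlap. BAX minus MCL1 had a difference of -0.11 on all arrays and of 0.011 without PF replicate 4. Without PF replicate 3 the differences were -0.27, -0.23, -0.10 and -0.26 in the same order of pairs. The pairs share BAX and MCL1 and leave out BCL2A1, the survival gene with weak signals and a lower mean in HS, and they were not tested.

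**Figure D4:**
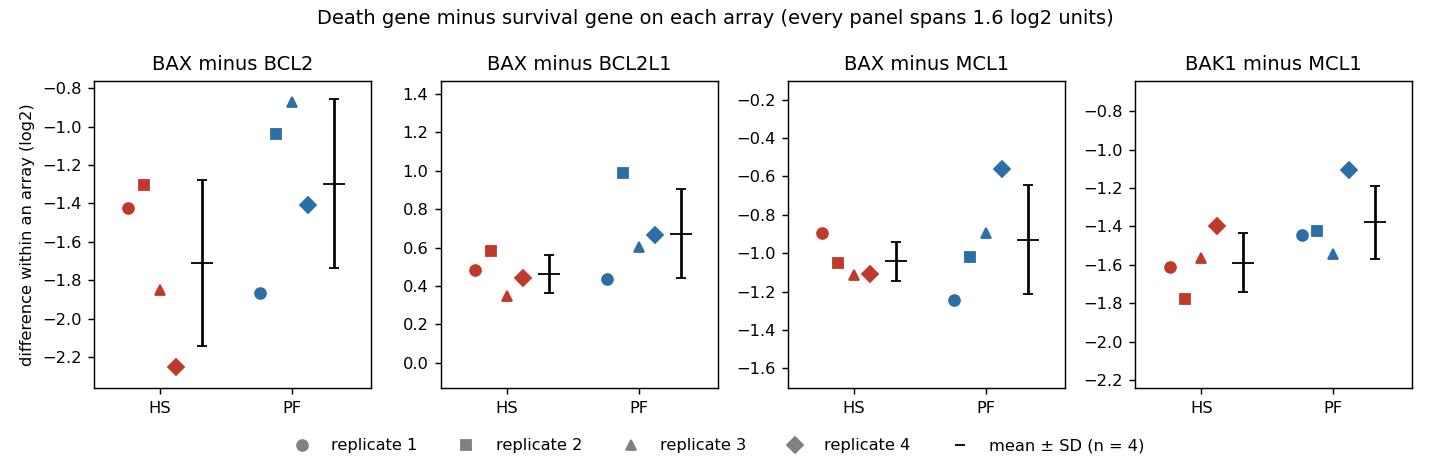
Signal of a death gene minus that of a survival gene on the same array (log2, y axis) in the 4 HS and 4 PF cows, with mean ± SD (n = 4) beside each group. In all 4 panels the HS mean is below the PF mean, by 0.11 to 0.41 log2 units, and the points overlap.

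The rest of the pathway showed no call either. Of 14 other BCL2 family genes, 5 had a higher mean in HS and 9 a lower one (median log2 difference -0.05), and 0 met the study's thresholds. The largest log2 difference of this list was that of BNIP3, at 0.74 (unadjusted p = 0.10 in limma), and 0.46 without PF replicate 3. BNIP3 was named after its values were seen. BCL2L13, which takes part in the removal of mitochondria, was at 7.85 ± 0.15 in HS and 7.44 ± 0.33 in PF (SD, n = 4), and BCL2L15 had weak signals of 3.69 ± 0.26 in HS and 4.07 ± 0.22 in PF (log2 differences of 0.42 and -0.39, adjusted p = 0.68 for both in limma). These differences were 0.26 for BCL2L13 and -0.42 for BCL2L15 without PF replicate 3. BBC3 (PUMA) and PMAIP1 (NOXA), which encode BH3-only proteins, had log2 differences of -0.07 and -0.52 (-0.13 and -0.52 without PF replicate 3), both with mean signals under 5, and were named after their values were seen. For PMAIP1, PF replicate 1 was at 4.90, against 3.17 to 3.78 in the other PF cows and 3.02 to 3.59 in HS.

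Of 10 genes of the mitochondrial death machinery, 9 had a higher mean in HS, with a median log2 difference of 0.25, and again 0 met the thresholds. CASP9, the initiator caspase that is activated with APAF1, had 7.09, 6.57, 6.71 and 6.93 in HS and 6.45, 6.38, 6.56 and 6.37 in PF. Every HS sample of CASP9 was above every PF sample, although HS replicate 2 exceeded PF replicate 3 by a small margin only. Its log2 difference was 0.38 (standard error 0.13, adjusted p = 0.68 in limma), a fold of 1.31, and 0.43 without PF replicate 3. HTRA2, a mitochondrial protease that antagonizes inhibitors of apoptosis once released, was at 8.77 ± 0.16 in HS and 8.37 ± 0.31 in PF (SD, n = 4), a log2 difference of 0.40 that was 0.34 without PF replicate 3. PF replicate 3 was the lowest array for 5 of these 10 genes, and without it the median difference was 0.07.

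Of 20 genes that regulate the family, 9 had a higher mean in HS and 11 a lower one (median log2 difference 0.00) and 0 past the thresholds. DDIT3, which encodes CHOP, a factor of the endoplasmic reticulum stress response that lowers BCL2 and raises BCL2L11 transcription in mouse and human cells, was at 7.44 ± 0.12 in HS and 7.61 ± 0.012 in PF (SD, n = 4). All HS samples of DDIT3 were below all PF samples, with a log2 difference of -0.17, and of -0.16 without PF replicate 3. No gene of these 3 lists passed an adjusted p of 0.05 in limma, while 3 of 14, 2 of 10 and 0 of 20 genes had an unadjusted p under 0.05 in the order of the lists, against 7.2% of all clusters. CASP9 and DDIT3 were the only genes of the 3 lists without overlap between groups on all arrays, which 4.64% of all clusters showed, and the thresholds that 0 genes of these lists met were met by 2.21%.

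**Figure D5:**
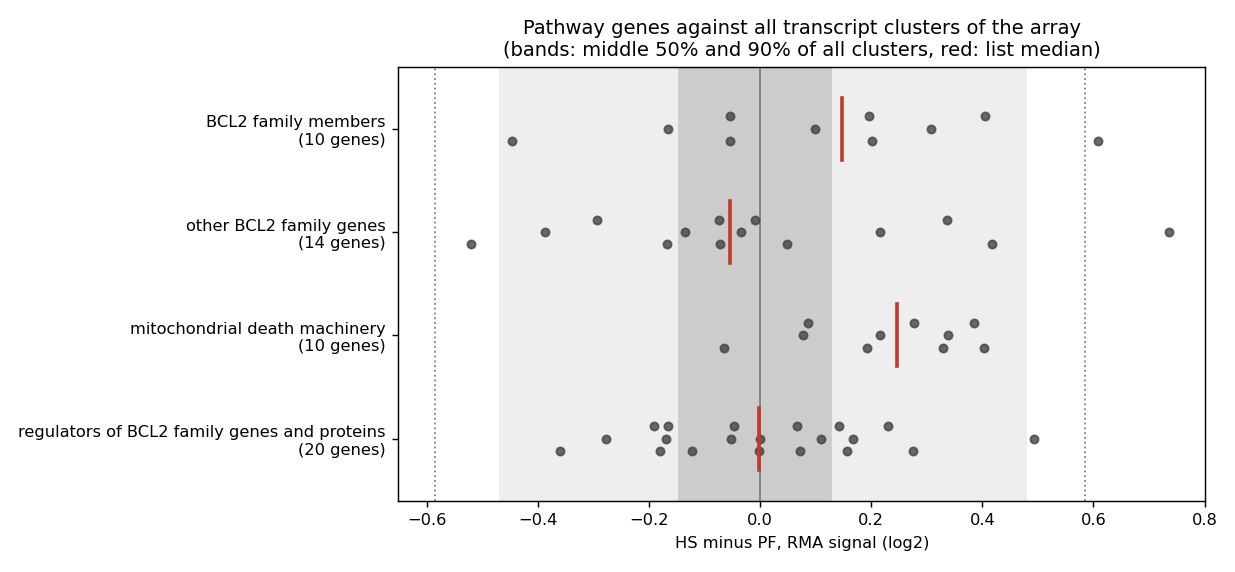
Log2 difference between HS and PF (x axis) for each gene of the family and of the 3 further lists (points), with the median of each list (red line) over bands from the 25th to the 75th and from the 5th to the 95th percentile of all transcript clusters. List medians are 0.15, -0.05, 0.25 and 0.00 from top to bottom, and the dotted lines mark a fold change of 1.5.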

How the data were processed

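RNA of mural granulosa cells from 4 HS and 4 PF cows was hybridized to Bovine Gene 1.0 ST arrays. The authors processed the arrays in the Affymetrix Expression Console by RMA with default settings (background reduction, normalization and gene-level summary), and the deposited values are log2 signals. Both deposited tables held the same values within 1.8e-15. No detection calls were used, so weak signals have no stated limit, and a mean log2 under 5 is named as weak.

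HS minus PF was fitted in R 4.3.3 with limma 3.58.1 (lmFit, then eBayes) over all 26773 clusters, with Benjamini-Hochberg adjustment over all of them. The study's one-way analysis of variance equals a t-test with equal variances here and was run as an alternative (the methods' t-test). Samples were treated as unpaired. Nothing states that a cow gave more than 1 array, and p-values measure the spread between cows. The procedure was tested on simulated data.

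All 10 members and, of each pathway list, the genes past the thresholds or else the 2 with the smallest unadjusted p are named. A regulator chosen by this rule is not reported here. Members and lists were chosen with earlier results of these data known. Of the members, 8 matched their symbol by accession and all 10 by name in the RefSeq gene table (assembly ARS-UCD2.0), and AREG of the LH list was not matched. Alternatives were the methods' t-test, eBayes with a trend, array weights, a signal filter, clusters with 1 symbol, other normalizations, the other table, a replicate block, the mean over clusters of a symbol and each array left out.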

Additional observations from a re-analysis of the deposited data

Results flagged for a closer look

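In 48 groups of 4 values (the 10 genes, the 4 within-array differences and the means of the further lists, in HS and in PF), a sample far from the others of its group was looked for by Dixon's criterion, which chance alone meets in about 5% of groups. It was met in 6 groups. PF replicate 3 was far below the other PF cows for BAK1 (6.08, with the next at 6.90), BAD (6.07, next 6.58) and BID (6.90, next 7.89). HS replicate 1 was far above the other HS cows for BCL2L1 (7.15, next 6.87). HS replicate 4 had the lowest mean of the LH surge genes in HS (8.06, next 8.31), and HS replicate 3 the highest mean of myeloid markers in HS (6.63, next 5.76).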

How the results depend on the processing

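No member met the study's thresholds or an adjusted p of 0.05 in any of the 18 alternatives. The count of members at an unadjusted p under 0.05 was 2 on all arrays, 0 by the methods' t-test, 1 with a mean log2 of at least 5 (which leaves out BCL2A1) and 0 to 2 when an array was left out. With 1 array left out, BCL2L1 was among them in 2 of 8 repeats and BCL2A1 in 4 of 8. Array weights also gave 2, but these were BID and MCL1 in place of BCL2L1 and BCL2A1. Members without overlap were 1 with array medians subtracted (BCL2L1), 1 with quantile normalization once more (BCL2A1) and 0 to 2 when an array was left out. The median difference of the members was 0.15 on all arrays and -0.04 with array weights, where BCL2 was at 0.26 and BCL2L1 at 0.19. The sign of the difference turned with array weights for BAX (-0.029) and BAK1 (-0.12), and with array medians subtracted for BAD (0.0024) and BCL2L11 (0.0031). When an array was left out, BAK1 ranged from -0.12 to 0.20, BAD from -0.20 to 0.0054 and BCL2L11 from -0.26 to 0.090. The other 6 genes kept their sign throughout. Clusters past the thresholds numbered 591 on all arrays, 355 by the methods' t-test and between 333 (without HS replicate 1) and 1566 (without PF replicate 2) when an array was left out. The list of other BCL2 family genes then had 0 to 1 calls (BNIP3 without PF replicate 2), and that of regulators 0 to 1 (1 call without PF replicate 4). Where signs or calls changed, the cause was not tested. HS and PF samples of the same replicate number deviated with correlations between -0.27 and 0.21. So few values cannot tell whether the numbers pair the cows. A replicate block left the median difference at 0.15 and 2 members at an unadjusted p under 0.05 in limma. Each member has 1 cluster, so that the mean over clusters changed nothing. With 4 cows per group, the 95% intervals had half-widths of 0.34 (BAD) to 0.72 (BCL2) on the log2 scale.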
